A study of Homo sapiens with 6 samples.

Results

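ATF4 and 9 genes that it is known to control or that report on amino acid stress were followed in MCF10A cells, an established non-tumorigenic line of human mammary epithelial cells, with and without growth factors. The genes were taken by name, as a fixed list of integrated stress response genes: ATF4, ASNS, TRIB3, DDIT3, CHAC1, PSAT1, PHGDH, SESN2, SLC7A11 and SLC7A5. All 10 are among the 19198 genes with deposited values, and all 10 passed the filter of a mean of at least 10 normalized counts that left 16988 genes for testing. Control cells (3 samples) were cultured with 5% horse serum, 10 µg/ml insulin, 20 ng/ml EGF, 100 ng/ml cholera toxin and 0.5 µg/ml hydrocortisone. Growth factor depleted cells (3 samples) had the same serum and antibiotics without these 4 additions. The labels list glutamine for both media, while the study's methods name it for the control medium only. The study asked how expression differs when this depletion drives an epithelial to mesenchymal transition (EMT). The labels do not give the day on which RNA was taken, and the base medium and the serum, which supply amino acids, were the same in both groups.

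ATF4 is a basic leucine zipper transcription factor that cells make in larger amounts when the translation factor eIF2α is phosphorylated. Kinases that sense uncharged tRNA, unfolded protein in the endoplasmic reticulum, double-stranded RNA or haem deficiency carry out that phosphorylation, and the program that follows is called the integrated stress response. Much of the control of ATF4 lies in translation of its mRNA, which RNA-Seq does not measure, so its target genes are commonly used as the readout. The targets include enzymes that make asparagine and serine, transporters that import amino acids, and regulators such as CHOP (the product of DDIT3) and TRIB3 that act when stress persists. Growth factor signaling through mTORC1 is also known to raise ATF4 and amino acid uptake.

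ATF4 binds DNA as a dimer with C/EBP proteins or other partners, at a composite site whose core is written TGATGNAA. This core was searched on both strands within 500 bases of the RefSeq start of each gene (GRCh38.p14, hg38 coordinates). RefSeq start sequences matched 9 of the 10 genes, SLC7A11 being the one without an entry. The core was present in 6 of the 9, against 10.9% of 27305 genes searched in the same way. The 30 bases around each match are shown because they place the genes in sequence next to their values, with the core in capitals and each line read along the strand of the gene:
ASNS: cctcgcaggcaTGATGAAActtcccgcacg
CHAC1: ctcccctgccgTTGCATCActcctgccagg
DDIT3: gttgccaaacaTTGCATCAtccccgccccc
PSAT1: ccctaggcgctTTGCATCAgcgtgcacagc
SESN2: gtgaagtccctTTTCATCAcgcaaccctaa
TRIB3: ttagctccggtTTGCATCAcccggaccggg
The ASNS window (chr7:97872458-97872487, minus strand) carries the core on the strand of the gene, and the other 5 carry it on the opposite strand, so that it reads there as its reverse complement. The CHAC1 window (chr15:40953251-40953280) and the ASNS window lie in exons of Gencode v44, the DDIT3 window (chr12:57520802-57520831, minus strand) and the PSAT1 window (chr9:78297381-78297410) in introns, and the SESN2 window (chr1:28259211-28259240) upstream of the gene. TRIB3 holds the same 30 bases in 3 tandem copies, at chr20:380881-380910, chr20:380914-380943 and chr20:380947-380976. ATF4, PHGDH and SLC7A5 have no match in this window. These matches describe letters near the start sites, and binding was not measured in these samples.

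Levels are given as normalized counts, which are reads per gene scaled by the authors with one DESeq2 size factor per sample. Recovered reads on genes came to between 7472418 and 28672630 per sample, depleted replicate 3 being the shallowest, and 3 reads there correspond to 6.71 normalized counts. Replicates of a group correlated at Pearson's r of 0.881 to 0.972 across genes. The labels do not say that replicates came from separate cultures, so p-values measure the spread between these samples, which may be technical. In bulk RNA, fewer cells expressing a gene and less RNA per cell cannot be told apart. The labels call the cells luminal, while the study describes MCF10A as normal-like basal cells. Of 10 luminal markers 7 were tested, and their summed level was 6425.8 to 17511.6 normalized counts in control and 17393.2 to 31625.1 in depleted cells. That sum follows KRT8 (log2 fold change 1.10) and KRT18 (1.17), and the other 5 had negative values, ESR1 (-2.99) and KRT19 (-2.31) the farthest from 0. All 7 basal markers were present, at sums of 76357.6 to 96374.3 and 52592.4 to 184058.1. Leukocyte markers summed to 9.4 to 26.3 in control and 13.4 to 23.6 in depleted cells, and endothelial markers to 167.2 to 1787.1 and 264.9 to 1610.0. PTPRC, which defines leukocytes, was at 0.0 to 2.0 in control and 10.1 to 13.8 in depleted cells, and the endothelial VWF at 0.6 to 3.9 and 2.7 to 13.4. Of the markers tested, limma called the endothelial CDH5 higher (log2 fold change 3.37) and the basal TP63 (-4.18) and luminal KRT19 (-2.31) lower. CDH5 was called in 11 of 17 alternatives and in 2 of the 6 that leave out a library, TP63 in 14 of 18 and 3 of 6, and KRT19 in 13 of 18 and 3 of 6. The basal KRT14 (2.69) and KRT17 (2.44) and the endothelial PECAM1 (0.09) had positive values and were not called. The endothelial KDR had a negative value (-3.83), opposite to CDH5, and was not called either. The part of cell composition in the values that follow was not tested.

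Growth factor depletion lowered one of the 10 genes by the criteria used here, SLC7A5, the light chain of the leucine transporter LAT1, and raised none. Calls required a change of at least 2-fold and, in limma over all genes tested, a p under 0.05 after Benjamini-Hochberg adjustment. Across all genes tested, 4.36% were called higher and 1.97% lower without growth factors. At an unadjusted p under 0.05, 2 of the 10 genes passed, SLC7A5 and SLC7A11, both lower, where 8.62% of all genes were lower and 11.4% higher by that measure. On the recovered reads, edgeR called 0 of the 10 in either direction (1.7% of all genes lower, 4.02% higher). DESeq2 called those same 2 lower and 0 higher (4.86% of all genes lower, 7.58% higher). The median log2 fold change of the 10 genes was -0.10, beside -0.03 for all genes, with 3 genes above 0 and 7 below. Every depleted sample lay below every control sample for 3 genes (SLC7A5, SLC7A11 and ASNS) and above for 0, where 12.1% and 13.5% of all genes did so.

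**Figure D1:**
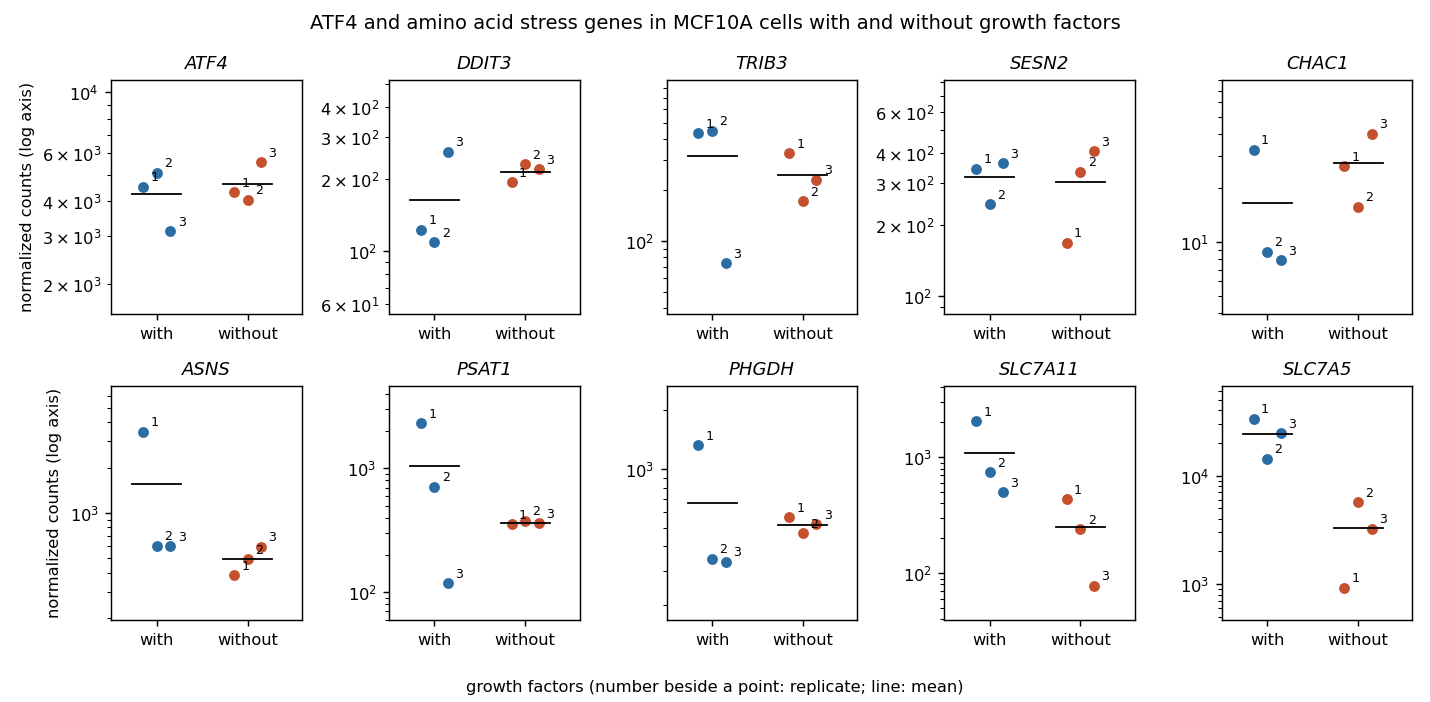
Normalized counts (log axis) of the 10 stress genes in each sample, with growth factors (blue) and without (orange); numbers name the replicate and lines the group means. ATF4 overlaps between groups, SLC7A5 and SLC7A11 separate, and control replicate 1 stands above all other samples for ASNS, PSAT1 and PHGDH.

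**Figure D2:**
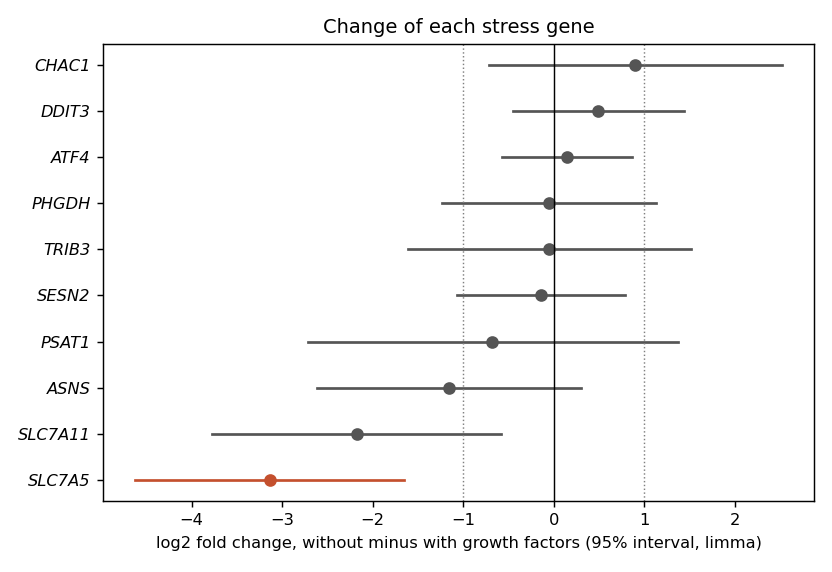
Log2 fold change of each stress gene without against with growth factors, with its 95% interval from limma; dotted lines mark a 2-fold change and orange the gene called. The intervals of SLC7A5 and SLC7A11 lie below 0 and those of the other 8 genes include 0.

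ATF4 mRNA (ENSG00000128272.13, chr22:39519695-39522683) was abundant in every sample. It measured 4526.7, 5091.6 and 3116.5 normalized counts in control replicates 1 to 3, and 4326.6, 4052.7 and 5542.9 in depleted replicates 1 to 3. The groups overlapped, with control replicate 3 lowest and depleted replicate 3 highest. The log2 fold change was 0.15 with a 95% interval of -0.57 to 0.86 (standard error 0.31, limma adjusted p = 0.854), an interval that does not include a 2-fold change in either direction. The processed copies ATF4P3 and ATF4P4 held counts equal to 3.13% and 3.17% of those of ATF4, and how the counting treated reads shared with them is not given in the sources used here.

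Transcripts for the 4 kinases upstream of ATF4 also differed by less than 2-fold between the group estimates. EIF2AK4 (GCN2, the sensor of uncharged tRNA) had a log2 fold change of 0.19, EIF2AK3 (PERK, the endoplasmic reticulum sensor) of 0.14, EIF2AK2 (PKR) of 0.00 and EIF2AK1 (HRI) of -0.55, and none was called. PPP1R15A, which encodes GADD34, the stress-induced subunit that returns eIF2α to its unphosphorylated form, measured 492.5, 1773.4 and 896.2 in control and 897.9, 3127.5 and 1934.1 in depleted cells. Its groups overlapped, and the difference of 0.93 on the log2 scale was not called (limma adjusted p = 0.423). Of 14 kinase, phosphatase and eIF2B genes, 0 were called in either direction by limma, and their median log2 fold change was -0.12. At an unadjusted limma p under 0.05, 2 were lower and 0 higher, where 8.62% and 11.4% of all genes were. EdgeR called 0 of the 14 genes and DESeq2 1, lower (4.86% of all genes were lower by DESeq2). NCK1, an adaptor that binds the other eIF2α phosphatase complex, had the largest change among them, -1.04 with an adjusted p of 0.0731.

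DDIT3, which encodes the pro-apoptotic factor CHOP (ENSG00000175197.9, chr12:57516588-57521737), measured 122.8, 109.0 and 259.7 normalized counts in control cells and 194.0, 230.1 and 219.1 in depleted cells. Control replicates 1 and 2 lay below all depleted samples and control replicate 3 above them, so the groups overlapped. On the log2 scale the difference was 0.49 (95% interval -0.45 to 1.44, limma adjusted p = 0.583). It was 0.88 without control replicate 3 (adjusted p = 0.0794) and 0.26 without control replicate 2 (0.828), the lowest and highest adjusted p of 18 alternatives. DDIT3 overlaps MARS1 and MBD6 on the opposite strand. The libraries keep strand, but the strand setting of the counting is not given in the sources used here, so reads of these genes could be mixed. MBD6 was itself highest in control replicate 3, at 443.7 normalized counts against 44.7 to 153.8 elsewhere, and its part in the DDIT3 value was not tested.

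TRIB3, a pseudokinase that restrains ATF4 and CHOP (ENSG00000101255.9, chr20:362835-397559), measured 433.6, 448.8 and 73.8 in control cells and 328.6, 171.8 and 230.3 in depleted cells. The control samples spanned the depleted ones, with control replicates 1 and 2 on top and control replicate 3 at the bottom. Its log2 fold change was -0.05 with a wide interval of -1.61 to 1.51 (limma adjusted p = 0.982). The related pseudokinase TRIB2 rose, from 72.7, 90.8 and 84.6 to 2615.9, 643.2 and 648.4 normalized counts, or by 3.63 on the log2 scale (standard error 0.54, limma adjusted p = 0.00672). Every depleted sample was above every control sample for TRIB2, and the call held with each library left out. Per kilobase of transcript, TRIB2 ran at 0.0909, 0.11 and 0.622 times TRIB3 in control cells and at 4.32, 2.03 and 1.53 times in depleted cells. TRIB1 had a log2 fold change of -0.31 and was not called.

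SESN2, a sestrin that senses leucine and holds back mTORC1 (ENSG00000130766.4, chr1:28259518-28282491), measured 344.6, 244.3 and 364.0 in control cells and 167.5, 335.0 and 409.2 in depleted cells. Depleted cells held both the lowest and the highest sample. SESN2 differed by -0.14 on the log2 scale (95% interval -1.07 to 0.79, limma adjusted p = 0.901). SESN1, at -0.69, and SESN3, at -0.43, were not called either.

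CHAC1, which breaks down glutathione and is among the most responsive ATF4 and CHOP targets (ENSG00000128965.10, chr15:40952962-40956512), was the scarcest of the 10, with 8 to 29 reads per sample. It measured 32.6, 8.8 and 7.9 normalized counts in control cells and 26.5, 15.7 and 40.2 in depleted cells. Control replicate 1 lay among the depleted samples and the other control samples lay below all of them. For CHAC1 the log2 fold change of 0.90 had an interval of -0.72 to 2.52 (limma adjusted p = 0.555) and was not called. It was 1.52 without control replicate 1, 0.56 without control replicate 3 and 0.50 under quantile normalization, with adjusted p from 0.345 to 0.877 over 17 alternatives. Its relative CHAC2 had a log2 fold change of -0.67 and was not called.

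Of the 3 biosynthetic enzymes, none was called, and their log2 fold changes depended on which control library was kept. ASNS, asparagine synthetase (ENSG00000070669.15, chr7:97851677-97872542), measured 3465.2, 605.2 and 603.0 normalized counts in control cells and 386.3, 491.1 and 597.0 in depleted cells. The groups did not overlap, yet control replicates 2 and 3 lay just above depleted replicate 3, and control replicate 1 lay far above all. The group means were 1557.8 ± 1651.9 and 491.4 ± 105.4 (SD, n = 3 each). The log2 fold change was -1.16 (95% interval -2.62 to 0.30, limma adjusted p = 0.371), and without control replicate 1 it was -0.32 (adjusted p = 0.731; range over 18 alternatives 0.0857 to 0.731).

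PSAT1, the aminotransferase of serine synthesis (ENSG00000135069.12, chr9:78297125-78330093), measured 2307.2, 712.4 and 118.0 in control cells and 352.4, 376.4 and 360.0 in depleted cells. The depleted samples were nearly equal, and the control samples lay on both sides of them. The log2 fold change was -0.68 (95% interval -2.72 to 1.37, limma adjusted p = 0.744). It was 0.32 without control replicate 1 (adjusted p = 0.887) and -1.82 without control replicate 3 (adjusted p = 0.0441), with adjusted p from 0.0441 to 0.887 over 18 alternatives, so the direction turned on which control library was kept. The processed copies PSAT1P3 and PSAT1P4 held 8.04% and 2.99% as many counts as PSAT1 and were also highest in control replicate 1 and lowest in control replicate 3, so reads may be divided between them and PSAT1.

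PHGDH, which opens the serine pathway (ENSG00000092621.10, chr1:119648411-119744218), measured 1320.9, 346.2 and 334.5 in control cells and 565.6, 466.8 and 518.7 in depleted cells. Control replicate 1 was above every depleted sample, and control replicates 2 and 3 were below every one. For PHGDH the log2 fold change was -0.05 (95% interval -1.24 to 1.13, limma adjusted p = 0.976), and without control replicate 1 it was 0.60 (adjusted p = 0.427, the lowest of 18 alternatives, the highest being 0.997). PSPH, which completes serine synthesis, measured 779.5, 563.6 and 341.4 in control and 400.0, 219.0 and 301.9 in depleted cells, and the difference of -0.83 on the log2 scale was not called (limma adjusted p = 0.293).

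SLC7A5, the light chain of LAT1, which brings leucine and other large neutral amino acids into the cell (ENSG00000103257.7, chr16:87830023-87869507), had the highest mean level per kilobase of the 10 genes in control cells, although ATF4 was above it in control replicate 2. It measured 33243.5, 14326.3 and 24411.4 normalized counts in control cells, a mean of 23993.7 ± 9465.5 (SD, n = 3). Depleted cells had 926.3, 5717.4 and 3228.7, a mean of 3290.8 ± 2396.2 (SD, n = 3). The highest depleted sample lay well below the lowest control sample, and the depleted samples stood at 3.86%, 23.8% and 13.5% of the control mean. SLC7A5 fell by 3.14 on the log2 scale (standard error 0.65, 95% interval -4.62 to -1.65, limma adjusted p = 0.026), which is 8.79-fold lower. The call was kept in 13 of 18 alternatives, over which the log2 fold change ran from -3.71 to -2.40 and the adjusted p from 8.3e-05 to 0.101. It was lost without control replicate 1 (-2.86, adjusted p = 0.101) and without depleted replicate 3 (-3.30, adjusted p = 0.0771), and in edgeR on the recovered reads (-2.82, adjusted p = 0.0509).

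SLC3A2 encodes 4F2hc, the heavy chain that carries both SLC7A5 and SLC7A11 to the cell surface. It measured 16069.1, 5821.0 and 7640.7 in control and 1135.9, 3650.1 and 2857.5 in depleted cells, groups that did not overlap. Its log2 fold change of -1.97 did not pass the adjusted threshold (standard error 0.53, limma adjusted p = 0.0686). Depleted replicate 1 was the lowest sample for both chains. Per kilobase of transcript, SLC7A5 stood at 0.856, 1.02 and 1.32 times SLC3A2 in control cells and at 0.337, 0.648 and 0.467 times in depleted cells, again without overlap. For SLC7A11 the ratio to SLC3A2 was 0.0249, 0.0248 and 0.0128 in control cells and 0.0745, 0.0129 and 0.00535 in depleted cells, where depleted replicate 1 was the highest and depleted replicate 3 the lowest, so the groups overlapped.

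SLC7A11, the light chain of the cystine and glutamate exchanger xCT, which supplies cysteine for glutathione (ENSG00000151012.12, chr4:138164097-138242349), measured 2050.3, 739.9 and 500.7 in control cells and 432.9, 240.6 and 78.3 in depleted cells. The groups did not overlap, although depleted replicate 1 and control replicate 3 were close. The lowest value rested on 35 reads. The log2 fold change was -2.17 (standard error 0.70, 95% interval -3.77 to -0.58), with an unadjusted limma p of 0.0134 and an adjusted p of 0.117, so SLC7A11 was not called. DESeq2 on the recovered reads called it (-2.11, adjusted p = 0.0181). The adjusted p ran from 0.0128 to 0.328 over 18 alternatives, 3 of which called it, and the log2 fold change from -2.72 to -1.50.

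Of 22 other amino acid transporters tested, limma called 1 higher and 2 lower, where 4.36% and 1.97% of all genes were. By edgeR, 0 were higher and 1 lower, where 4.02% and 1.7% of all genes were. By DESeq2, 3 were higher and 5 lower, where 7.58% and 4.86% of all genes were. At an unadjusted limma p under 0.05, 3 were higher and 6 lower, where 11.4% and 8.62% of all genes were. The median log2 fold change of the 22 transporters was 0.06. SLC6A14, a broad transporter of neutral and cationic amino acids, measured 5119.5, 3602.4 and 3182.4 in control cells and 38.4, 81.3 and 62.6 in depleted cells. It fell by 6.04 on the log2 scale (standard error 0.36, limma adjusted p = 0.000324), which is 65.8-fold lower, and the call held with each library left out. SLC6A15, a neutral amino acid transporter, measured 1566.6, 1156.5 and 1439.2 in control and 593.1, 192.1 and 154.3 in depleted cells. Its groups were far apart, and it fell by 2.40 (limma adjusted p = 0.0248). That call was lost without control replicate 1 (adjusted p = 0.0969) or 2 (0.0596) and without depleted replicate 2 (0.104) or 3 (0.0943). SLC43A1 (LAT3), another leucine transporter, was at 1.3, 0.6 and 3.9 normalized counts in control cells and rose to 47.6, 15.1 and 15.7 in depleted cells. Its log2 fold change of 3.18 was at the edge of the threshold (limma adjusted p = 0.0499), and of the 6 fits that leave out a library only the one without control replicate 3 kept the call (adjusted p = 0.0196), the other 5 giving 0.133 to 0.139. Over 17 alternatives it was called in 4, and with a pseudocount of 10 the log2 fold change was 1.49 (adjusted p = 0.0772), since the control values are close to the pseudocount.

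**Figure D3:**
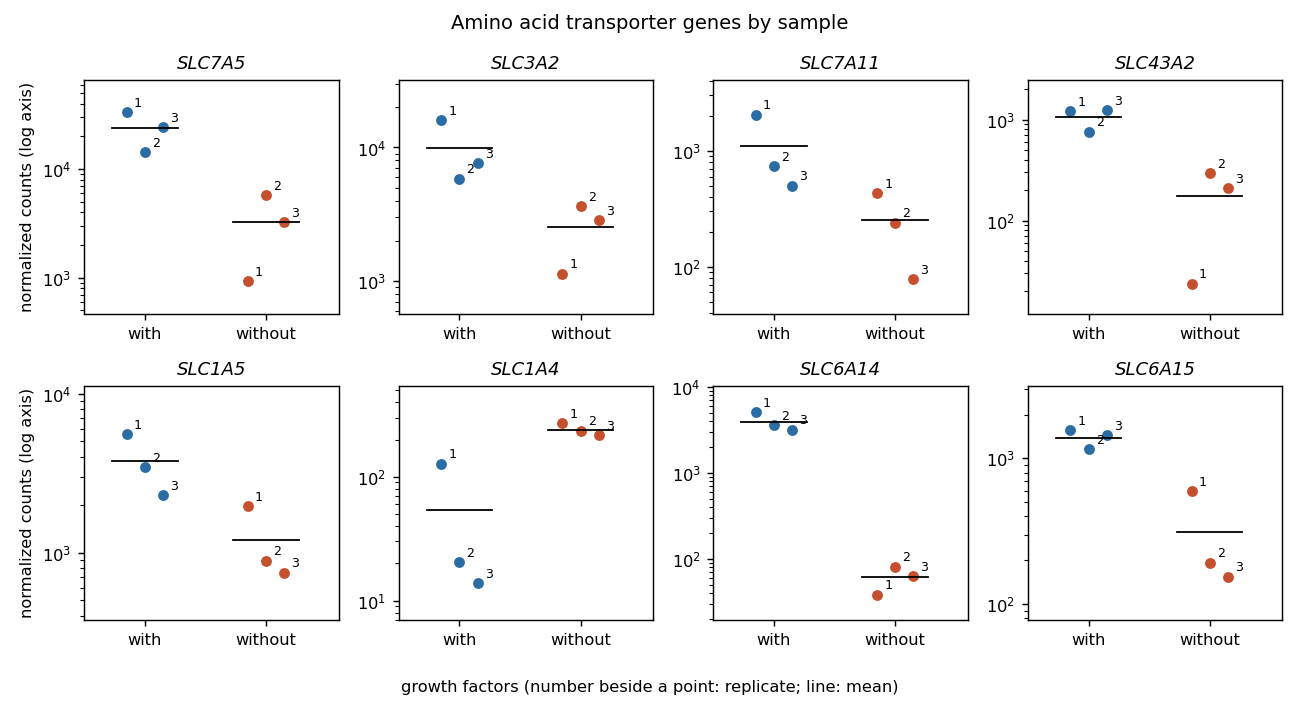
Normalized counts (log axis) of 8 amino acid transporter genes by sample, with growth factors (blue) and without (orange); numbers name the replicate and lines the group means. SLC1A4 is the one gene drawn whose depleted samples all lie above control; SLC1A5 and SLC43A2 were added after their values were seen.

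SLC7A7, a light chain that exports cationic amino acids, measured 1.3, 0.6 and 4.9 in control and 12.8, 22.9 and 55.9 in depleted cells (log2 fold change 3.27, limma adjusted p = 0.0539). SLC1A4, an alanine and serine transporter and ATF4 target, measured 127.8, 20.5 and 13.8 in control cells and 270.0, 236.0 and 216.9 in depleted cells. Both genes had groups that did not overlap and neither was called, the log2 fold change of SLC1A4 being 2.81 (limma adjusted p = 0.0695). SLC1A5 (ASCT2), which imports glutamine, and SLC43A2 (LAT4), another leucine transporter, were chosen after their values were seen. Their log2 fold changes were -1.69 for SLC1A5 (limma adjusted p = 0.069) and -3.17 for SLC43A2 (0.063), both without overlap between groups.

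One control library stood apart in the stress genes, a pattern chosen after the values were seen. Control replicate 1 was the highest of the 6 samples for 5 of the 10 genes, where it was highest for 16.6% of all genes. It was at least 2-fold above both other controls for 5 of the 10 genes (ASNS, PSAT1, CHAC1, PHGDH and SLC7A11), where 2.74% of all genes met that condition. Relative to the mean of control replicates 2 and 3 it held 5.74 times as much ASNS, 5.56 times as much PSAT1, 3.91 times as much CHAC1, 3.88 times as much PHGDH and 3.31 times as much SLC7A11. For ATF4 the ratio was 1.10, so these 5 genes were high there at a level of ATF4 mRNA close to that of the other controls. Control replicate 3 was the opposite in part, being the lowest of the 6 samples for 5 of the 10 genes, where it was lowest for 26.4% of all genes.

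The same library was on top in some related lists and not in others. The lists share genes, so their shares are not independent. Many tRNA synthetases (such as EPRS1, GARS1 and IARS1), enzymes (PCK2, GPT2, MTHFD2) and transporters (SLC3A2, SLC1A5) also count among the other ATF4 targets. SLC7A11 also counts in the glutathione and NRF2 list. Control replicate 1 was highest for 24 of 41 other ATF4 targets (58.5%), 13 of 20 cytosolic tRNA synthetases (65%), 14 of 22 genes of the other unfolded protein response arms (63.6%) and 9 of 16 other amino acid enzymes (56.2%). It was highest for 41.7% of serine, glycine and one-carbon enzymes and 40.9% of amino acid transporters. Elsewhere the share was 28% of the sestrin and mTORC1 list, 21.4% of the eIF2α list, 20% of CHOP-linked genes, 19% of glutathione and NRF2 genes and 9.09% of bZIP partners, beside the 16.6% of all genes. The condition of at least 2-fold above both other controls, met by 2.74% of all genes, gave another order. The tRNA synthetases, unfolded protein response genes, CHOP-linked genes and bZIP partners had 0 such genes. Shares were 17.1% of other ATF4 targets, 18.2% of transporters, 14.3% of glutathione and NRF2 genes and 12% of the mTORC1 list. One-carbon enzymes had 8.33%, the eIF2α list 7.14% and other amino acid enzymes 6.25%. A log2 ratio over the other controls was also taken, against the mean of their log2 values with a pseudocount of 1. Its median was 1.50 for the 10 genes, 0.98 for other ATF4 targets and 0.74 for tRNA synthetases. For CHOP-linked genes the median was -0.26 and for bZIP partners -0.50, beside 0.02 for all genes. This library had 14515993 recovered reads on genes, within the range of the other 5, and no source used here says how the control cultures differed.

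**Figure D4:**
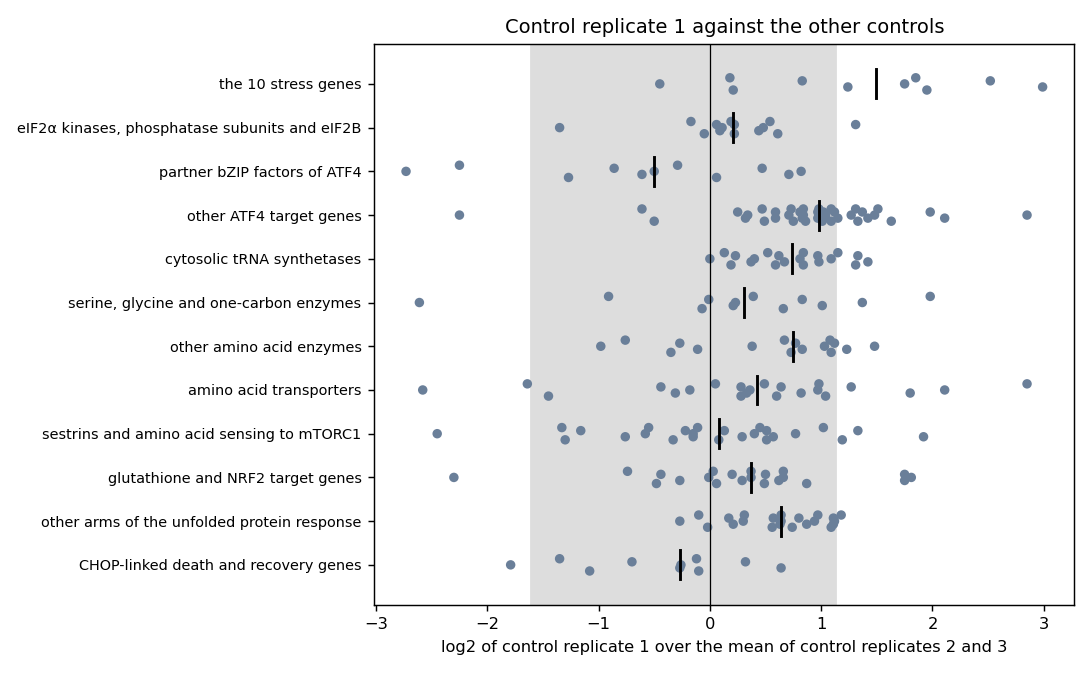
Log2 value of control replicate 1 (pseudocount of 1) minus the mean log2 value of control replicates 2 and 3, for each gene of the lists (points). Bars give the list median. Grey spans the middle 90% of all genes tested, from -1.61 to 1.13. The median of the 10 stress genes, 1.50, lies outside the grey span.

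Among 177 related genes tested in 11 lists, the 10 genes left out, limma called 6 higher and 4 lower. In this limma fit the shares were close to the 4.36% higher and 1.97% lower of all genes tested, which was not kept for lower calls in every alternative. Of 41 other ATF4 targets, limma called 3 higher and 1 lower, with a median log2 fold change of -0.21. DESeq2 called 5 higher and 4 lower (7.58% and 4.86% of all genes). At an unadjusted limma p under 0.05, 6 were higher and 5 lower (11.4% and 8.62% of all genes). STC2, a secreted glycoprotein that helps cells through endoplasmic reticulum stress, rose from 731.9, 833.7 and 194.8 to 4270.7, 5069.6 and 2904.5 normalized counts. Every depleted sample was far above every control sample (log2 fold change 3.01, standard error 0.54, limma adjusted p = 0.0149), and the call was lost without depleted replicate 2 (2.84, adjusted p = 0.0685). NUPR1, a small stress-induced chromatin protein, rose from 515.1, 233.2 and 497.8 to 1560.6, 1859.5 and 3387.4. Its groups did not overlap either (log2 fold change 2.45, limma adjusted p = 0.012), and the call was lost without depleted replicate 3 (2.12, adjusted p = 0.0525). JDP2, a bZIP partner of ATF4, rose from 159.2, 127.7 and 73.8 to 365.2, 301.6 and 436.0 (log2 fold change 1.66, limma adjusted p = 0.0439). Of the 6 fits leaving out a library, only the one without control replicate 3 kept JDP2 (adjusted p = 0.0274), and the other 5 gave 0.0618 to 0.201.

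Of 12 serine, glycine and one-carbon enzymes tested, limma called 0 higher and 2 lower, where 4.36% and 1.97% of all genes were. EdgeR called 0 higher and 2 lower (4.02% and 1.7% of all genes). DESeq2 called 0 higher and 3 lower (7.58% and 4.86% of all genes). At an unadjusted limma p under 0.05, 0 were higher and 4 lower (11.4% and 8.62% of all genes). The median log2 fold change of the 12 enzymes was -0.93. ALDH1L2, a mitochondrial folate enzyme and ATF4 target, fell from 1694.4, 426.5 and 432.8 to 142.8, 129.2 and 98.4 normalized counts. Control replicate 1 was again the highest sample (log2 fold change -2.47, limma adjusted p = 0.0337). The ALDH1L2 call was lost without control replicate 1 (-1.81, adjusted p = 0.0526) and without depleted replicate 1 (0.0628), 2 (0.105) or 3 (0.125). MTHFD2L, another mitochondrial folate enzyme, fell from 399.8, 681.9 and 826.3 to 190.4, 188.8 and 138.6. Here control replicate 1 was the lowest control sample (log2 fold change -1.83, limma adjusted p = 0.0224), and the call was lost without control replicate 2 (0.0795) and without depleted replicate 2 (0.0812) or 3 (0.108).

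Genes linked to CHOP, in death and in recovery from stress, had the highest list median, 0.61 over 10 genes, 7 above 0 and 3 below. Limma called 2 higher and 0 lower, where 4.36% and 1.97% of all genes were. DESeq2 called 3 higher and 0 lower (7.58% and 4.86% of all genes). At an unadjusted limma p under 0.05, 4 were higher and 1 lower (11.4% and 8.62% of all genes). The 2 called by limma were TRIB2 and PMAIP1, which encodes the pro-apoptotic protein NOXA. BCL2, whose product opposes death, had a log2 fold change of 2.23 and was not called. PMAIP1 rose from 116.6, 174.0 and 89.5 to 681.0, 672.1 and 532.2 normalized counts. Its groups were far apart (log2 fold change 2.35, standard error 0.35, limma adjusted p = 0.00656), and the call held with each library left out. DDIT3 itself was not called, as given above.

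**Figure D5:**
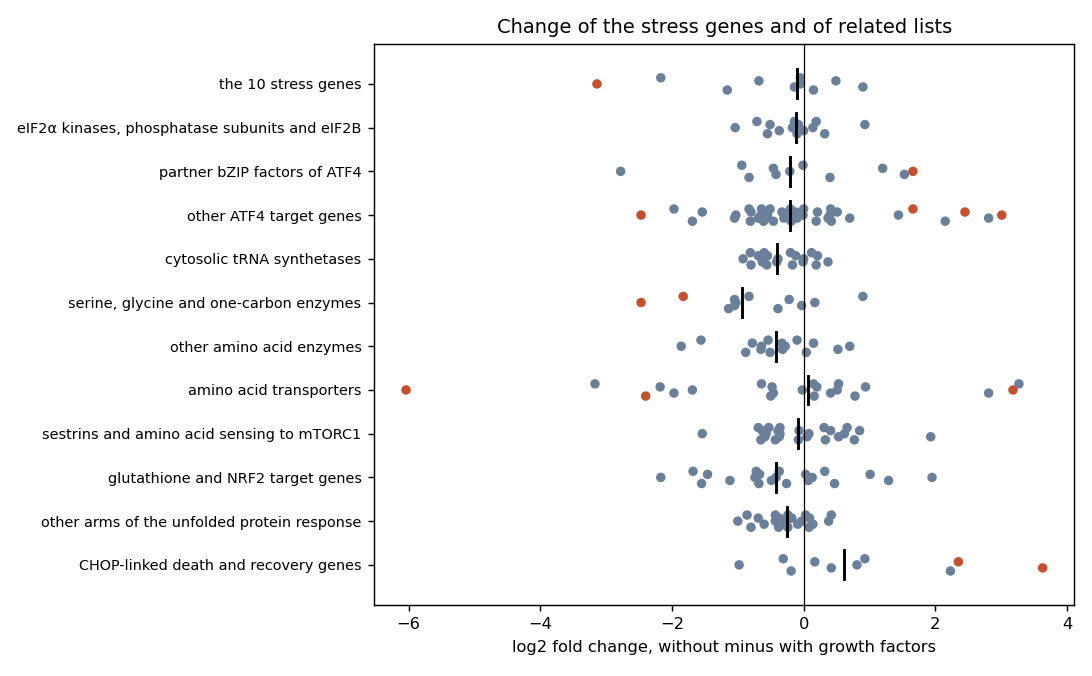
Log2 fold change without against with growth factors for each tested gene of the lists (points, orange where called) with the list median (bar). The list medians run from -0.93 (serine, glycine and one-carbon enzymes) to 0.61 (CHOP-linked genes); SLC6A14 at -6.04 and TRIB2 at 3.63 lie at the ends.

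The 20 tRNA synthetases, which are ATF4 targets in many cells, had 0 calls in either direction by limma, edgeR or DESeq2. They had a median log2 fold change of -0.40, with 1 lower at an unadjusted limma p under 0.05 (8.62% of all genes). The largest changes were -0.92 for VARS1 (adjusted p = 0.135) and -0.81 for EPRS1 (adjusted p = 0.346). The 16 other amino acid enzymes likewise had 0 calls by limma and edgeR and 1, lower, by DESeq2 (4.86% of all genes). They had a median of -0.42, with 3 lower and 0 higher at an unadjusted limma p under 0.05 (8.62% and 11.4% of all genes). The largest changes there were -1.86 for PRODH, proline dehydrogenase (adjusted p = 0.218), and -1.56 for ASS1, which makes argininosuccinate (adjusted p = 0.0624). Of 11 bZIP partner genes, 1 was higher by limma (JDP2) and 0 lower, where 4.36% and 1.97% of all genes were, with a median of -0.21. At an unadjusted limma p under 0.05, 2 were higher and 1 lower (11.4% and 8.62% of all genes). FOS varied most, from 24.6 normalized counts in depleted replicate 3 to 3228.6 in control replicate 2 (log2 fold change -2.78, limma adjusted p = 0.366).

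Levels can be compared between genes only after division by transcript length, here that of the canonical transcript. On that scale the control means were 5270 normalized counts per kilobase for SLC7A5, 2990 for ATF4, 653 for ASNS, 474 for PSAT1 and 358 for PHGDH. The other 5 genes were lower, from 181 for DDIT3 to 10.8 for CHAC1. SLC7A5 was above ATF4 in control replicates 1 and 3 and below it in control replicate 2 (3140 against 3590). In depleted cells the mean was 3270 per kilobase for ATF4, the highest gene in each of the 3 samples, and 722 for SLC7A5, which ran from 203 in depleted replicate 1, below PHGDH (303) and DDIT3 (215), to 1250 in depleted replicate 2. The next means were PHGDH with 277, DDIT3 with 237 and ASNS with 206, and SLC7A11 stood at 26 where it had been at 114 in control cells.

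The genes whose profile over the 6 samples was most like that of ATF4 were PDE6D, MAEA and TBC1D1, by Euclidean distance of log2 values centred on the mean of each gene (0.13, 0.14 and 0.15, among 11687 genes). All 3 were low in control replicate 3 and high in depleted replicate 3. For ASNS the nearest were ATP6V1A, ST6GAL1 and CPVL, at distances of 0.99, 1.05 and 1.06. ATP6V1A, a subunit of the vacuolar proton pump, measured 14244.4, 5456.6 and 4229.1 in control and 3860.7, 3732.7 and 4357.8 in depleted cells, with control replicate 1 on top as for ASNS.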

How the data were processed

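Per the labels and methods, the libraries came from RNA cleared of ribosomal RNA (TruSeq, stranded) and were read single-end over 100 bases. TopHat2 placed the reads on hg38, HTSeq 0.6 assigned them to Gencode v22 genes, and DESeq2 1.8.1 supplied the size factors. The deposited values are the resulting normalized signal, which the authors did not divide by gene length. Whole reads were recovered from it (100.0% of values whole within 0.01 read). Gencode v44 named 18913 of 19198 identifiers. The samples were grouped by their labels, which list 3 per condition although the deposit's design text speaks of duplicates.

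Here, limma 3.58.1 in R 4.3.3 (lmFit, eBayes with trend) was run on log2 values with a pseudocount of 1, for 16988 genes that averaged 10 normalized counts or more, without blocks or covariates. Fold changes are on that scale, which understates changes of scarce genes, and ± gives the SD. An exact permutation test of 3 against 3 samples cannot go below p = 0.1. The 10 genes, the related lists and the tests were chosen with earlier results of these data known. Named from each related list are the called genes and the 2 with the largest absolute change, plus direct partners of the 10 genes (SLC3A2, PSPH, EIF2AK1 to EIF2AK4, PPP1R15A, SESN1, SESN3, CHAC2, TRIB1, TRIB2). The genes most like ATF4 or ASNS are the 3 nearest with a mean of at least 100. The procedure was tested on simulated data. Alternative settings comprised pseudocounts of 0.5 and 10, no filter, a mean of at least 50, equal totals, quantile normalization, no trend, the replicate block, a length and GC correction with and without that block, edgeR 4.0.16, DESeq2 1.42.0, each library left out, and non-overlap of the groups. Intervals are at 95%, and a floor of 3 reads covers counting error only. SAMTOR is listed as BMT2. Sequences are from RefSeq and hg38. Figures were drawn with Python 3.11.15 and matplotlib 3.10.9.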

Additional observations from a re-analysis of the deposited data

How the results depend on the processing

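No alternative called any of the 10 genes higher. The number called lower, 1 in limma, was 0 without the trend and in edgeR, 2 in DESeq2, 2 with the replicate block, 3 by non-overlap of the groups, and 0 to 2 with a library left out. SLC7A5 (-3.14) had an adjusted p of 0.0515 without the trend and, at -3.36, of 0.0718 with the length and GC correction and the replicate block. SLC7A11 had an adjusted p of 0.0128 with the replicate block (-2.17) and of 0.016 with that block and the correction (-2.15). Directions turned for TRIB3 under quantile normalization (0.00) and with a library left out for ATF4 (-0.06 to 0.29), TRIB3 (-0.90 to 0.39), PSAT1 (-1.82 to 0.32), PHGDH (-0.39 to 0.60) and SESN2 (-0.40 to 0.24). Of 179 values of the 10 genes over the alternatives, 161 kept direction and side of the threshold.

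The related genes called higher, 6 in limma, were 11 in DESeq2 and 3 to 8 with a library left out (3 without depleted replicate 2 or 3). Those called lower, 4 in limma, were 2 without the trend, 7 with the replicate block, 8 with the length and GC correction, 16 in DESeq2 and 1 to 25 with a library left out (25 without control replicate 3). Over all 16988 genes, 335 were lower in limma, 825 in DESeq2 and 1102 without control replicate 3. In those alternatives the related genes called lower grew by a larger factor than all genes, and their share was no longer close to that of all genes. Of all genes tested, 1076 were called, beside 688 with the correction and replicate block, 971 in edgeR, 2112 in DESeq2 and 453 to 2474 with a library left out, and 68.9% of the calls were higher, beside 60.6% with the length and GC correction, 60.9% in DESeq2 and 55.5% without control replicate 3. The cause was not tested. Deviations of same-numbered samples from their group means correlated at -0.073, -0.283 and -0.323, and those of differently numbered samples at -0.068 to 0.291. Deviations within a group sum to 0, so these values depend on one another and cannot show whether samples were paired. The labels give only a replicate number.

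With 3 samples a group, the intervals of TRIB3, PSAT1 and PHGDH include a 2-fold change in both directions. Those of CHAC1 and DDIT3 include a 2-fold rise, and those of ASNS, SESN2 and SLC7A11 a 2-fold fall. CHAC1 rests on at most 29 reads. ATF4 protein and eIF2α phosphorylation were not measured.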

Other observations

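Genes of glutathione synthesis, for which SLC7A11 imports cystine, and of the NRF2 response to oxidants showed no call among 21 tested by limma, with a median log2 fold change of -0.42. At an unadjusted p under 0.05, 1 was higher and 5 were lower, where 11.4% and 8.62% of all genes were. DESeq2 called 1 higher and 5 lower (7.58% and 4.86% of all genes), and edgeR called 0. The 21 genes include SLC7A11 itself, which enters the median and is 1 of the 5 lower by each of these measures. GGCT, a glutathione cycle enzyme, measured 609.1, 1003.6 and 245.9 normalized counts in control cells and 133.6, 177.7 and 190.1 in depleted cells (log2 fold change -1.68, limma adjusted p = 0.0966). HMOX1, haem oxygenase, measured 87.7, 118.3 and 65.9 in control and 134.5, 664.8 and 456.1 in depleted cells (log2 fold change 1.95, limma adjusted p = 0.0997). Both had groups that did not overlap, in opposite directions.

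Of 25 genes of the sestrins and of amino acid sensing to mTORC1, 0 were called by limma and edgeR, and the median was -0.08. DESeq2 called 1, lower (4.86% of all genes). At an unadjusted limma p under 0.05, 2 were higher and 1 lower (11.4% and 8.62% of all genes). DDIT4 (REDD1), an inhibitor of mTORC1 and ATF4 target, measured 15471.3, 7733.2 and 7576.7 in control and 2095.1, 3704.5 and 4740.2 in depleted cells, without overlap (log2 fold change -1.54, limma adjusted p = 0.0749). CASTOR2, of the arginine sensing family, measured 12.5, 50.4 and 105.3 in control and 130.9, 222.3 and 138.6 in depleted cells (log2 fold change 1.93, limma adjusted p = 0.177).

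The 22 genes of the other unfolded protein response arms had 0 calls by limma and edgeR and a median of -0.25. DESeq2 called 1, lower (4.86% of all genes). At an unadjusted limma p under 0.05, 2 were lower and 0 higher (8.62% and 11.4% of all genes). PDIA4, a protein disulfide isomerase of the endoplasmic reticulum, was lower in every depleted sample, at 2744.9 to 3025.2 against 4413.0 to 7479.3 normalized counts (log2 fold change -1.0, limma adjusted p = 0.0937), and SYVN1, a ubiquitin ligase of its quality control, overlapped between groups (log2 fold change -0.86, limma adjusted p = 0.345).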
